A study of Mus musculus with 2 samples.

Results

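The genes described here encode the subunits of RNA polymerases I, II and III and of the Mediator complex. They were taken by symbol, as every listed gene whose symbol starts with Polr1, Polr2 or Polr3 or is Med followed by a number, with or without a final l. This gave 58 of 17215 genes: 3 belonging to polymerase I alone, 8 to polymerase II alone, 10 to polymerase III alone, 7 shared between polymerases, and 30 Mediator genes. The study cultured MC3T3-E1 cells, an established clonal pre-osteoblast line from mouse calvaria, with formaldehyde, a reactive aldehyde that crosslinks protein and DNA. One group received formaldehyde at 300 µM and the other at 100 µM, in the same serum-containing medium, and each was sequenced as 1 library of total RNA. The labels give neither an exposure time nor a replicate. Cells without formaldehyde were not analysed here, so every difference is one between 2 libraries and no p-value is given.

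RNA polymerase I transcribes the large ribosomal RNA precursor, polymerase II transcribes messenger RNA, and polymerase III transcribes transfer RNA, 5S ribosomal RNA and other small RNAs. Each is built around a pair of large subunits that form the catalytic centre, surrounded by small subunits, several of which are common to all the polymerases. Mediator bridges transcription factors and polymerase II. Its head and middle modules contact the polymerase, its tail contacts activators, and a dissociable kinase module carries a cyclin-dependent kinase.

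Levels are in FPKM, the number of sequenced fragments for every kilobase of transcript relative to the mapped total, so genes can be compared per length. Steps between low values put the depth at about 19000000 fragments for 300 µM, against 18500000 for 100 µM. Counting intervals below are exact 95% intervals on read numbers estimated from these steps and the length of 1 transcript per gene. For genes with several transcripts these read numbers are approximate. The intervals cover counting error only, not variation between cultures. Differences are log2((FPKM at 300 µM + 1)/(FPKM at 100 µM + 1)), called log2 ratios, which understate the change of low genes. They are given where the mean of both libraries reached 1 FPKM, and 2-fold or more on this scale counted as higher or lower. A bare value in parentheses after a gene or its levels is its log2 ratio. Of 7 osteoblast markers, 6 reached 1 FPKM at 300 µM and 5 at 100 µM, with Col1a1 (collagen I) at 1714 FPKM (300 µM) and 2065 FPKM (100 µM). Bglap (osteocalcin) was at 0.49 FPKM at 300 µM and listed at 0 at 100 µM. Adipocyte, blood, muscle and endothelial markers summed to at most 1.46 FPKM per list at 300 µM and 5.14 FPKM at 100 µM. The cartilage collagen gene Col2a1 stood at 350.1 FPKM (300 µM) and 321.7 FPKM (100 µM). Of the other cartilage markers, Sox9 stood at 9.78 FPKM (300 µM) and 61.4 FPKM (100 µM), and Acan (aggrecan) was listed at 0 in both libraries. Their part in the results below was not tested. In such bulk RNA, fewer cells of a type and less RNA per cell cannot be told apart.

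Of the 58 genes, 57 passed the level filter. The exception, Med12l, a paralog of the kinase module gene Med12, stood at 0.01 FPKM at 300 µM and 0.03 FPKM in the 100 µM library. Among the 57, 18 (31.6%) were at least 2-fold lower at 300 µM and 2 (3.51%) at least 2-fold higher, while 37 lay between. Of all 10123 genes compared, 29.9% were lower and 6.09% higher, so neither share was far from the background. At least 4-fold lower were 8 of the 57 (14.04%), against 9.32% of all genes. The median log2 ratio was -0.53 for the subunit genes and -0.30 for all genes compared. After centring on the median gene, 12 were lower and 6 higher, where the background was 22.3% lower and 14.5% higher.

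In polymerase II, the largest subunit gene stood apart from its partners. Polr2a, which encodes the catalytic subunit with the C-terminal repeat domain, stood at 14 FPKM at 300 µM, against 180.87 FPKM at 100 µM. It was 12.9-fold lower at 300 µM, with a log2 ratio of -3.60, the 23rd lowest of the 10123 genes compared. Without the pseudocount the log2 difference was -3.69, with a counting interval of -3.76 to -3.62. Polr2a ranked 3882nd by level among all listed genes at 300 µM and 403rd at 100 µM. Of the 8 genes of polymerase II alone it was the lowest at 300 µM and the highest at 100 µM.

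Polr2b, its partner in the catalytic centre, stood at 16.92 FPKM at 300 µM, against 34.17 FPKM at 100 µM (log2 ratio -0.97). The level of Polr2a was thus 0.827 times that of Polr2b at 300 µM and 5.29 times at 100 µM. This quotient is taken within each library and does not depend on how the libraries are scaled. It does not remove the trend with transcript length given below (6740 bases for Polr2a, 4145 for Polr2b). Polr2c, Polr2j and Polr2g, small subunits of the core and of the stalk, had log2 ratios of 0.14, 0.32 and 0.39. Polr2i, a small core subunit that acts in transcript cleavage and fidelity, stood at 33.83 FPKM at 300 µM, against 16.13 FPKM at 100 µM. It was one of the 2 genes at least 2-fold higher (1.02). It was within 2-fold with equal sums of FPKM (0.66), with the trend in transcript length and GC content removed (0.24) and with a pseudocount of 5 (0.88). Antisense exons of Tbcb cover 39.7% of its transcript, and whether reads were assigned by strand is not given in the sources used here. Polr2c shares 62.7% of its 50-base words with other genes, chiefly Gm11993 and Dok4.

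The 2 stalk genes of polymerase II differed in direction. Polr2d stood at 23.53 FPKM at 300 µM, against 48.95 FPKM at 100 µM (-1.03), and Polr2g, with which it forms a heterodimer, at 109.12 FPKM (300 µM) and 82.98 FPKM (100 µM). Polr2g was 4.64 times the level of Polr2d at 300 µM and 1.70 times at 100 µM. Polr2m, which encodes a polymerase-associated protein that restrains initiation, had a log2 ratio of -0.76.

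The 5 subunits common to polymerases I, II and III were slightly higher or level at 300 µM, all within 2-fold. Polr2l stood at 121.34 FPKM at 300 µM, against 71.53 FPKM at 100 µM (0.75), and Polr2f at 144.00 FPKM (300 µM) and 95.70 FPKM (100 µM; log2 ratio 0.58). Polr2k, Polr2e and Polr2h had log2 ratios of 0.48, 0.40 and 0.01. These signs depend on the scale: with equal sums of FPKM in both libraries, the median of the 7 shared genes was 0.025 in place of 0.40, and with the trend in transcript length and GC content removed it was -0.37. Of the pair shared by polymerases I and III, Polr1d stood at 168.96 FPKM (300 µM) and 153.45 FPKM (100 µM) and Polr1c at 46.77 FPKM (300 µM) and 72.22 FPKM (100 µM; log2 ratio 0.14 and -0.62). The 7 encode short proteins with transcripts of 489 to 1650 bases, and 6 of them lay below the median of all genes in their class of transcript length.

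**Figure D1:**
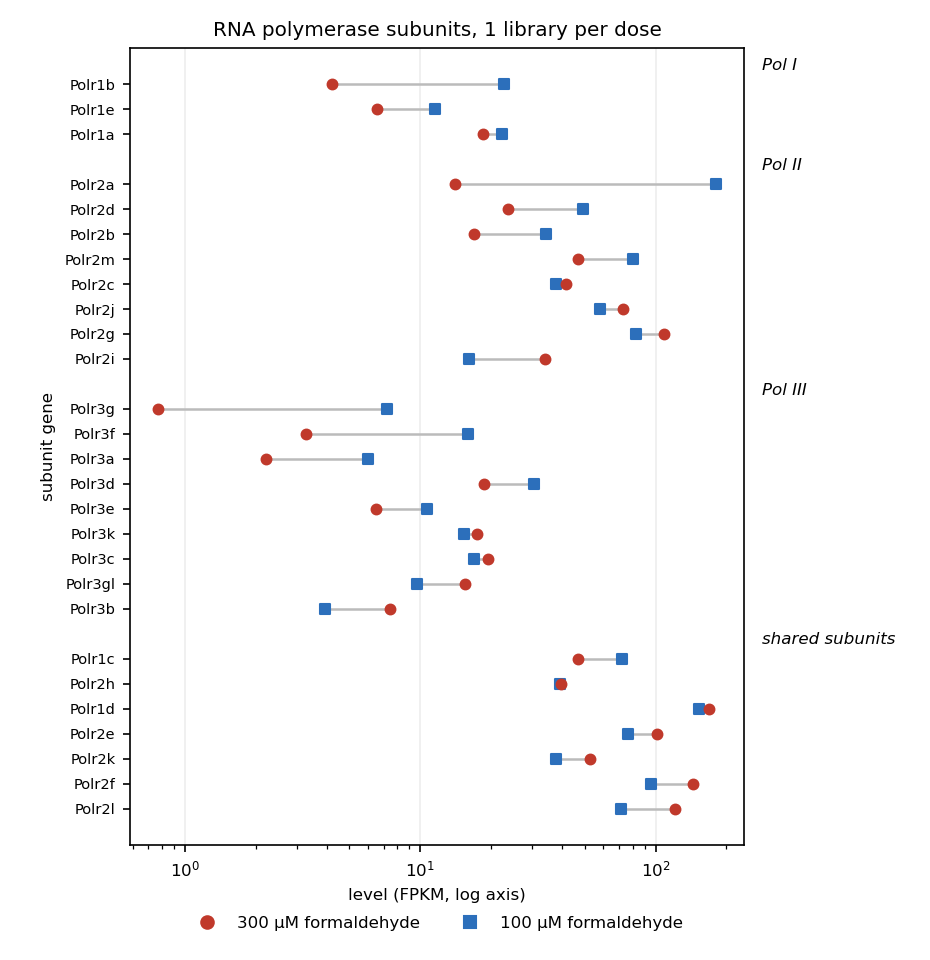
Levels of RNA polymerase subunit genes in FPKM (log axis) in the 300 µM library (circles) and the 100 µM library (squares), 1 library per dose, ordered by log2 ratio within each complex. Polr2a lies at 14 FPKM (300 µM) and 180.87 FPKM (100 µM), the widest gap among the polymerase genes, while most shared subunits lie slightly to the right at 300 µM.

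In polymerase I, the second largest subunit gene was the lower of the pair. Polr1a, the largest subunit, stood at 18.55 FPKM at 300 µM, against 22.27 FPKM at 100 µM (-0.25), whereas Polr1b, the second largest, stood at 4.21 FPKM (300 µM) and 22.72 FPKM (100 µM). Polr1b was 5.40-fold lower at 300 µM (log2 ratio -2.19, and -2.43 without the pseudocount, counting interval -2.61 to -2.26). The level of Polr1a was 4.41 times that of Polr1b at 300 µM and 0.980 times at 100 µM. Polr1e, which encodes part of a peripheral heterodimer, had -0.73. Further polymerase I subunits are listed under older symbols and fall outside the rule. Of these, Twistnb (Polr1f) stood at 5.47 FPKM (300 µM) and 24.94 FPKM (100 µM) and Cd3eap (Polr1g), the partner of Polr1e, at 13.03 FPKM (300 µM) and 32.84 FPKM (100 µM), with log2 ratios of -2.00 and -1.27. Znrd1 (Polr1h), the small zinc-binding subunit, had 0.34. With these 3 the median of polymerase I was -1.002 over 6 genes, against -0.73 over 3.

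Polymerase III genes went both ways at low levels, from 0.77 to 19.49 FPKM at 300 µM and 3.93 to 30.31 FPKM at 100 µM. The large pair differed in direction. Polr3a, the largest subunit, stood at 2.22 FPKM at 300 µM, against 6.03 FPKM at 100 µM (-1.13), and Polr3b, the second largest, at 7.42 FPKM (300 µM) and 3.93 FPKM (100 µM; log2 ratio 0.77). Polr3b was 3.34 times the level of Polr3a at 300 µM and 0.652 times at 100 µM. Polr3a was within 2-fold after centring (-0.83), with the trend in transcript length and GC content removed (-0.72) and with a pseudocount of 5 (-0.61). The counting intervals of the unpadded log2 differences were -1.69 to -1.20 for Polr3a and 0.73 to 1.10 for Polr3b. They do not cover variation between cultures.

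The paralogs Polr3g and Polr3gl, alternative subunits of the same initiation heterotrimer, also diverged. In mammals Polr3g is known for its expression in stem and proliferating cells and Polr3gl for its presence in most tissues. Polr3g stood at 0.77 FPKM at 300 µM, against 7.26 FPKM at 100 µM, and Polr3gl at 15.54 FPKM (300 µM) and 9.71 FPKM (100 µM), so that Polr3gl was 20.2 times the level of Polr3g at 300 µM and 1.34 times at 100 µM. Their log2 ratios were -2.22 and 0.63. About 45 reads at 300 µM and 411 at 100 µM are estimated for Polr3g, a log2 difference of -3.24 (counting interval -3.71 to -2.79). In the same heterotrimer Polr3f stood at 3.27 FPKM (300 µM) and 15.99 FPKM (100 µM; log2 ratio -1.99) and Polr3c at 19.49 FPKM (300 µM) and 17.00 FPKM (100 µM; log2 ratio 0.19). Polr3d, Polr3e and Polr3k had log2 ratios of -0.66, -0.64 and 0.17.

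Of the Mediator genes, 12 of 29 (41.4%) were at least 2-fold lower and 1 was higher, with a median of -0.69, where 29.9% of all genes compared were lower and 6.09% higher. After centring, 8 were lower and 3 higher, against 22.3% and 14.5% of all genes. The 28 polymerase genes had 6 lower and 1 higher, with a median of -0.12. Of the 7 head genes 5 were lower, with a median of -1.18, and of the 9 middle genes 4 were lower, with a median of -0.91. All 9 middle genes and 6 of 7 head genes had log2 ratios below 0, as did 6028 of all 10123 genes compared. Below the median gene lay 8 of the 9 middle genes and 6 of the 7 head genes. Of the 9 tail genes, 1 was lower and 1 higher, and the median was 0.31. The tail was taken to include Med27, Med28, Med29 and Med30, which some schemes assign elsewhere. With these 4 counted as head, the median was -0.53 for the head and 0.17 for the tail. Centring on the median gene shifts every median up by the same amount, to -0.88 for the head, -0.61 for the middle and 0.61 for the tail. It left 3 head and 3 middle genes lower, and in the tail 1 lower and 3 higher.

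Med17, the central architectural subunit of the head, stood at 1.29 FPKM at 300 µM, against 10.19 FPKM at 100 µM (-2.29). Med18 stood at 0.60 FPKM (300 µM) and 6.97 FPKM (100 µM) and its partner Med20 at 9.51 FPKM (300 µM) and 30.72 FPKM (100 µM; log2 ratio -2.32 and -1.59). Med8, which anchors that pair to the head, stood at 4.58 FPKM (300 µM) and 11.64 FPKM (100 µM; log2 ratio -1.18). Med22 stood at 15.10 FPKM (300 µM) and 33.15 FPKM (100 µM; log2 ratio -1.08), and its partner Med11 had 0.20. Med6, which links head and middle, stood at 11.92 FPKM (300 µM) and 17.65 FPKM (100 µM; log2 ratio -0.53). Within the head, then, only Med11 of the 7 was higher at 300 µM, by less than 2-fold. Med20 shares 23.2% of its words with Gm20517, which overlaps it.

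In the middle module, Med26 had the lowest log2 ratio of Mediator. Med26, which recruits elongation factors, stood at 0.33 FPKM at 300 µM, against 8.96 FPKM at 100 µM, a log2 ratio of -2.90. About 19 reads at 300 µM and 497 at 100 µM are estimated for it, an unpadded log2 difference of -4.76 (counting interval -5.49 to -4.09). Med1, the subunit bound by nuclear receptors, stood at 5.84 FPKM (300 µM) and 27.36 FPKM (100 µM; log2 ratio -2.05). Med4 and Med7, structural subunits, stood at 8.02 FPKM (300 µM) and 25.07 FPKM (100 µM) and at 10.85 FPKM (300 µM) and 25 FPKM (100 µM; log2 ratio -1.53 and -1.13). The shortest of the module were nearer to 0, with -0.91 for Med31, -0.47 for Med21 and -0.33 for Med10, as were Med19 (-0.69) and Med9 (-0.17). Antisense exons cover 90.9% of the Med10 transcript, 39.2% of that of Med31, 23.9% of that of Med7 and 12.7% of that of Med26. Med14, the scaffold that joins the modules, stood at 4.30 FPKM at 300 µM, against 9.15 FPKM at 100 µM (-0.94).

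The tail held the Mediator gene that was highest relative to 100 µM. Med27 stood at 30.35 FPKM at 300 µM, against 4.65 FPKM at 100 µM, 6.53-fold higher, with the 19th highest log2 ratio of all genes compared (2.47). Without the pseudocount it was 2.71 (counting interval 2.41 to 3.01), and antisense exons of Gm13402 cover 11.6% of its transcript. Med30 stood at 36.02 FPKM (300 µM) and 17.62 FPKM (100 µM) and Med16 at 29.02 FPKM (300 µM) and 14.60 FPKM (100 µM), just inside 2-fold on the log2 ratio (0.99 and 0.94). Med25, Med28, Med24 and Med15 had 0.31, 0.32, 0.17 and 0.02, and Med29 had -0.04. The exception was Med23, a target of signalling through the transcription factor Elk1, at 2.26 FPKM (300 µM) and 9.96 FPKM (100 µM; log2 ratio -1.75).

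In the kinase module, Med13, which links it to the core complex, stood at 1.05 FPKM at 300 µM, against 12.34 FPKM at 100 µM (-2.70), and its paralog Med13l at 1.13 FPKM (300 µM) and 3.97 FPKM (100 µM; log2 ratio -1.22). Med12, which activates the kinase, stood at 8.57 FPKM (300 µM) and 9.62 FPKM (100 µM; log2 ratio -0.15). Med13 was 0.123 times the level of Med12 at 300 µM and 1.28 times at 100 µM. The paralogs Med13 and Med13l were nearly level at 300 µM, where Med13l was 1.08 times Med13, and it was 0.322 times at 100 µM. The partners of the module, not members by symbol, were within 2-fold: Cdk8 stood at 10.15 FPKM (300 µM) and 19.75 FPKM (100 µM), its paralog Cdk19 at 1.79 FPKM (300 µM) and 1.83 FPKM (100 µM), and Ccnc (cyclin C) at 9.84 FPKM (300 µM) and 17.00 FPKM (100 µM).

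**Figure D2:**
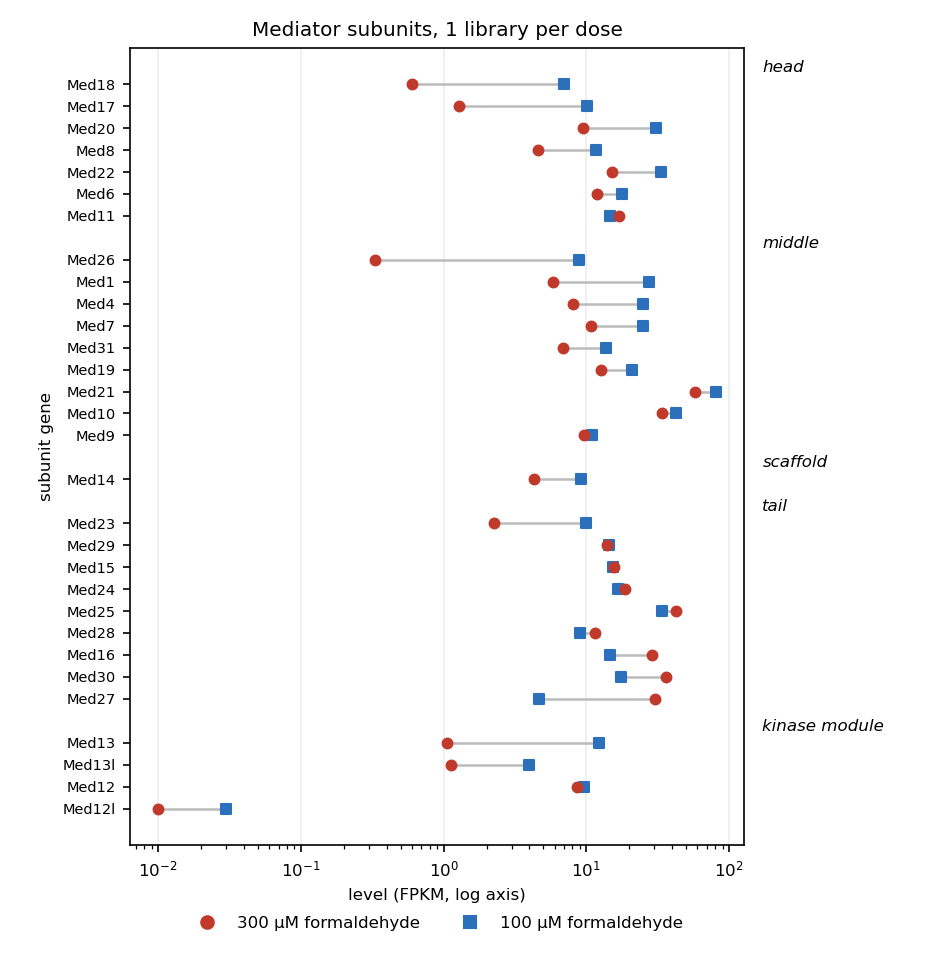
Level of each Mediator subunit gene in FPKM (log axis) in the 300 µM library (circles) and the 100 µM library (squares), 1 library per dose, ordered by log2 ratio within each module. In the head and middle the circles lie to the left for all genes but Med11, while in the tail Med27 lies at 30.35 FPKM (300 µM) and 4.65 FPKM (100 µM).

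**Figure D3:**
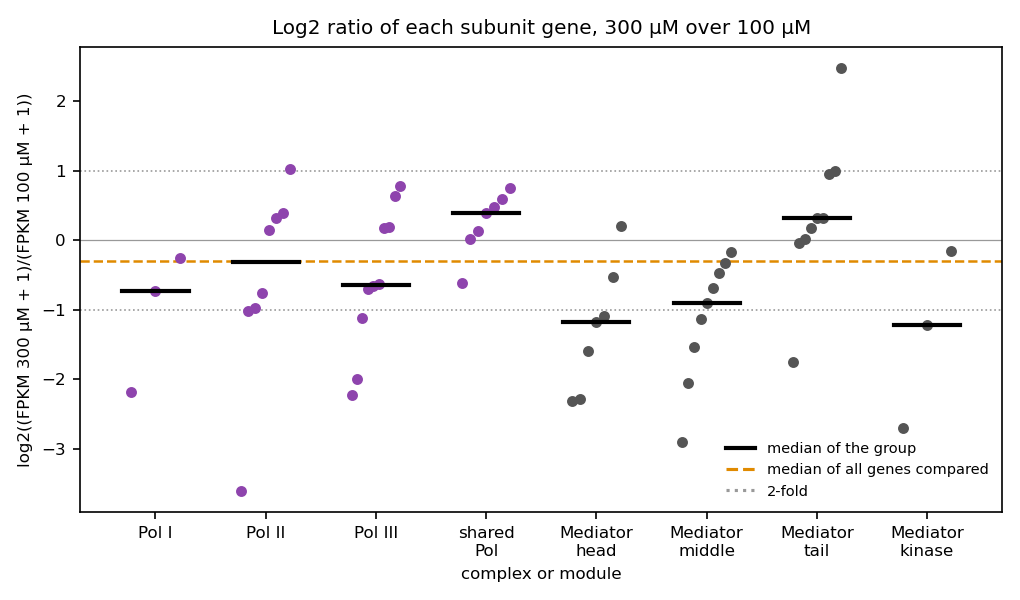
Log2 ratio, 300 µM over 100 µM, of each subunit gene with a mean of at least 1 FPKM, by complex or module (Med14, the scaffold, is not drawn). Black bars are group medians, which run from -1.22 in the kinase module (3 genes with long transcripts) to 0.40 in the shared polymerase subunits. The dashed line is the median of all genes compared, -0.30.

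Within Mediator and polymerase III, levels were further apart at 300 µM than at 100 µM. Over the 29 Mediator genes, the standard deviation of log2(FPKM + 1) was 1.48 at 300 µM and 0.88 at 100 µM. Over the 10 polymerase III genes it was 1.22 at 300 µM and 0.77 at 100 µM, and over the 8 polymerase II genes 0.99 at 300 µM and 1.01 at 100 µM. All genes compared also spread further apart, with 2.16 at 300 µM and 1.84 at 100 µM.

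Large subunits had the lower median log2 ratio. Taking a protein of at least 1000 residues as large (Polr3b, with 1133, was the shortest so counted and Med24, with 987, the longest left out), 7 of 12 large subunits were at least 2-fold lower and 0 were higher. The 12 are the first and second subunits of each polymerase, Med1, Med12, Med13, Med13l, Med14 and Med23. Of 45 small subunits 11 were lower and 2 higher. Medians were -1.17 for large and -0.17 for small subunits, a difference of -1.004. In the polymerases the difference was -1.19 and in Mediator -1.01. Among all genes compared, 42.7% of those for large proteins were lower and 2.3% higher, against 28.1% and 6.59% of those for shorter proteins, and the medians differed by -0.51.

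Transcript length moved with this difference. Across all genes compared, the median log2 ratio was -1.06 in the tenth with the longest transcripts and 0.61 in the tenth with the shortest. Large subunits had a median transcript of 6292.5 bases and small ones of 1580 bases. Relative to the median of all genes in the same class of length, large subunits lay at -0.37 and small ones at -0.34 in the median. With the trend in transcript length and GC content removed from all ratios, the difference between large and small was -0.048, or -0.21 in the polymerases and 0.022 in Mediator. Spearman's rho between transcript length and log2 ratio was -0.44 over the 57 subunit genes and -0.41 over 10093 genes, a description across genes that share the same 2 libraries.

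The tail of Mediator also had the highest median of head, middle and tail on this length-matched scale. Relative to genes of the same length class, the head lay at -1.69 in the median and the middle at -1.08, with all 7 and all 9 genes below their class. The tail lay at 0.63, with 2 of 9 below. The kinase module, which had the lowest median without length matching (-1.22), lay at -0.17, with 2 of 3 below. With Med27 to Med30 counted as head, the head lay at -1.14, next to the middle at -1.08, whereas without length matching the middle was the lower (-0.91, against -0.53 for that head). Polr2a lay at -2.54, Polr1b at -1.59 and Polr3g at -1.76, whereas Polr1a, Polr3b and Med12 lay above genes of their length, by 0.80, 1.71 and 0.91.

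**Figure D4:**
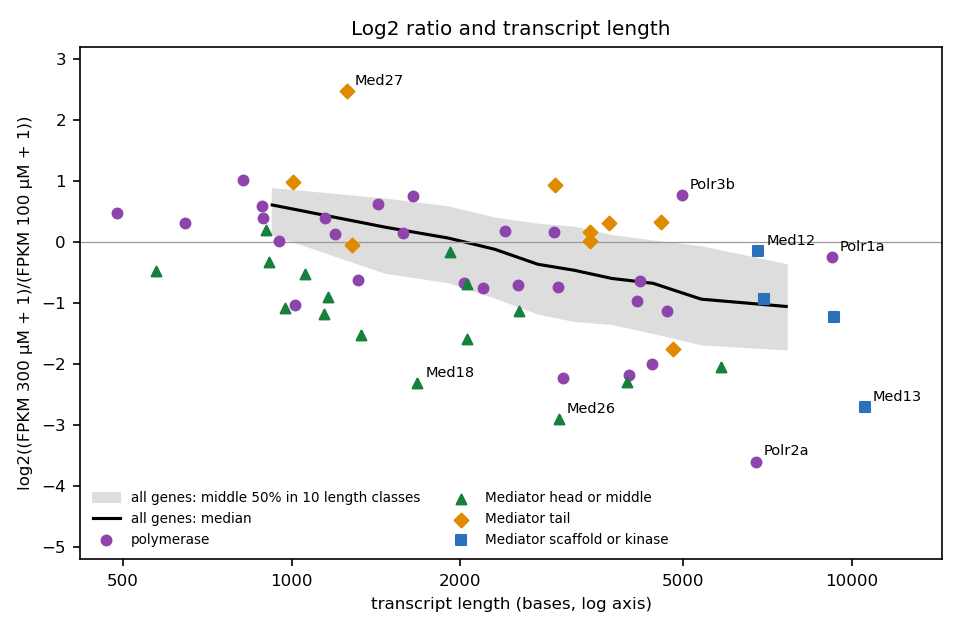
Log2 ratio, 300 µM over 100 µM, against transcript length in bases (log axis) for the 57 subunit genes. The line and band are the median and the middle 50% of all genes in 10 classes of length; the median runs from 0.61 to -1.06, all head and middle genes of Mediator lie below the line, and Med27 and Polr3b lie above it.

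Promoters were read from RefSeq (GRCm38.p6), as windows from 250 bases before to 50 after a start site, and 48 of the 58 genes had 54 windows. Shown are the polymerase gene and the Mediator gene with the lowest log2 ratio, Polr2a (chr11:69758584-69758883, minus strand) and Med26 (chr8:72548261-72548560, minus strand). Set beside them are the 2 higher genes, Polr2i (chr7:30231824-30232123, plus strand) and Med27 (chr2:29346560-29346859, plus strand, the first of 2 windows). Capitals mark GGGCGG on either strand, the core of the GC box that SP and KLF factors bind.
Polr2a: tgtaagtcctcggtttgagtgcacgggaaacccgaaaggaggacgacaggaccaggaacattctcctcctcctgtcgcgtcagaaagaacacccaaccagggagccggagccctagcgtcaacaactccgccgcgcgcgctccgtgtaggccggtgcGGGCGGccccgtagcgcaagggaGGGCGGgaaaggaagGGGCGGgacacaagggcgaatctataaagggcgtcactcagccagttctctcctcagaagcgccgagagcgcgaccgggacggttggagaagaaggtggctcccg
Med26: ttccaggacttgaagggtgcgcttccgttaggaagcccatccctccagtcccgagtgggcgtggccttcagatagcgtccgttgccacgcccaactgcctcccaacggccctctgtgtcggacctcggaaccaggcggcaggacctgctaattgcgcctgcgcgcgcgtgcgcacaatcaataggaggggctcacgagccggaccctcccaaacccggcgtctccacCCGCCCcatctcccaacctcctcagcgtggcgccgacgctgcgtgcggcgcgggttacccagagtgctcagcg
Polr2i: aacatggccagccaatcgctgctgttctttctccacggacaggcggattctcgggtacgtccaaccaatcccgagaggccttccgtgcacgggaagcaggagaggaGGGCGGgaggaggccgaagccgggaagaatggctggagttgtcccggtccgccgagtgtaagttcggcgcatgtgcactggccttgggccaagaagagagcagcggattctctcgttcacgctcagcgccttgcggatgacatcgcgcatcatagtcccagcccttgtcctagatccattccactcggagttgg
Med27: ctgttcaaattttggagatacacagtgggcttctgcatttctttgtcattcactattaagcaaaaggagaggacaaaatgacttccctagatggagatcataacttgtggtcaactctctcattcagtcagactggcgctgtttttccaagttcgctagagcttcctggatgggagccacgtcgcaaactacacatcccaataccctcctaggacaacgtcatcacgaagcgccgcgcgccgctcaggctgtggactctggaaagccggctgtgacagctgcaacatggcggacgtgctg

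The Polr2a window holds this motif more than once, those of Med26 and Polr2i hold it once, and that of Med27 does not hold it. It occurred in 13 of 15 windows of the lower subunit genes and 19 of 38 windows of the others compared. By gene it occurred in 12 of 14 and 18 of 33. Its share was 61.1% over all subunit windows, 65.1% over windows of all genes compared and 35.7% over all 32851 windows. The shares beyond the subunits were not split into lower and other genes, so they do not show whether this contrast is particular to the subunits. Base composition moved with the motif: median GC content was 62.7% in windows of the lower subunit genes and 57.2% in the others. It was 61.3% in windows of all genes compared. The ETS motif CCGGAAG was in 29.6% of subunit windows, 19.4% of windows of genes compared and 8.86% of all windows, and in 4 of 15 lower windows and 12 of 38 others. The NRF1 motif GCGCATGCG was in 9.26% of subunit windows, 3.96% of those of genes compared and 1.75% of all. For CACGTG the shares in that order were 13.0%, 10.3% and 7.15%, for CCAAT 33.3%, 38.2% and 37.4%, and for TATAAA 9.26%, 6.68% and 13.6%. The NRF1 motif was in 1 of 15 lower windows and 4 of 38 others, and CACGTG in 1 of 15 and 6 of 38. CCAAT was in 5 of 15 and 13 of 38, and TATAAA in 2 of 15 and 3 of 38. Both strands were searched, and none of these motifs contains another. A match says only that the letters occur.

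Further genes of the transcription machinery were taken from lists by function. Of 101 genes in 8 lists, all of which passed the level filter, 42 were at least 2-fold lower and 1 was higher (34 and 3 after centring), with a median of -0.78. The shares of all genes compared, against which this count and those of the single lists stand, were 29.9% lower and 6.09% higher (22.3% and 14.5% after centring). The list of elongation and pausing factors had 17 of 28 lower and 0 higher, with a median of -1.60. Relative to genes of the same length class, the median was -1.03 for this list and -0.33 over all 101 genes. It was -0.40 for TFIID, -0.28 for the other general factors of polymerase II, -0.42 for polymerase I factors and 0.048 for polymerase III factors. For Mediator kinase partners, assembly factors and mitochondrial transcription it was -0.27, -0.17 and -1.23. Ccnt1, the cyclin of the elongation kinase P-TEFb, stood at 0.96 FPKM at 300 µM, against 15.85 FPKM at 100 µM (-3.10). Aff1, a scaffold of the super elongation complex, stood at 1.51 FPKM (300 µM) and 13.69 FPKM (100 µM; log2 ratio -2.55).

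Among initiation factors, TFIID had 8 of 16 genes lower and 0 higher (median -1.005), with Taf4, Tbp and Taf5 at -1.69, -1.58 and -1.53. The other general factors of polymerase II had 7 of 17 lower and 1 higher (median -0.25). Gtf2a1 of TFIIA stood at 0.74 FPKM (300 µM) and 7.95 FPKM (100 µM; log2 ratio -2.36), while the TFIIH helicase gene Ercc2 had -1.88 and Gtf2e1 of TFIIE -1.81. Mnat1, the assembly factor of the TFIIH kinase, was the only gene of these 8 lists at least 2-fold higher, at 19.23 FPKM (300 µM) and 4.95 FPKM (100 µM; log2 ratio 1.77). Ercc2 shares 26.1% of its words with other genes, Klc3 foremost, and Tbp 17.8%, Pdcd2 foremost.

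Factors of polymerase I had 2 of 7 lower, Taf1c (-2.26) and Rrn3 (-1.20). Rrn3, which makes the polymerase competent for initiation, stood at 15.75 FPKM (300 µM) and 37.44 FPKM (100 µM). Those of polymerase III had 4 of 17 lower, with Gtf3c4 of TFIIIC at 0.91 FPKM (300 µM) and 18.43 FPKM (100 µM; log2 ratio -3.35) and Bdp1 and Brf2 of TFIIIB at -2.19 and -2.02. Maf1, the repressor of polymerase III, stood at 20.22 FPKM (300 µM) and 24.54 FPKM (100 µM; log2 ratio -0.27). Of 10 polymerase assembly factors only Gpn2 was lower (-1.13), with a list median of -0.20. All 3 genes of mitochondrial transcription were lower: Polrmt, the mitochondrial RNA polymerase, stood at 3.83 FPKM (300 µM) and 15.81 FPKM (100 µM), and Tfam and Tfb2m had -1.90 and -1.47. Tfb2m shares 39.6% of its words with Gm1818.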

How the data were processed

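RNA-seq levels were measured in MC3T3-E1 cells, 1 library at 300 µM and 1 at 100 µM formaldehyde. The authors deposited 1 table of FPKM values per library, rounded to 2 decimals, per the file headers. Per the submitters' processing notes Bowtie2 and RSEM were used, with no version. The sources used here give no build, annotation or strandedness. FPKM depends on the total of its library, and RSEM divides reads among isoforms and near-identical copies.

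NCBI gene numbers were matched to symbols in RefSeq GRCm38.p6 (17179 genes) and GENCODE M21 (7), while 29 rows have no name. The length and GC content of transcripts and protein length (coding length, in place of the RefSeq proteins first planned) came from 1 GENCODE M21 transcript per gene, available for 10093 of 10123 genes compared. For each listed gene the share of 50-base words found in other genes' transcripts, on either strand, and the overlap with their exons were computed. Depth was read from genes with 1 annotated transcript, where FPKM times length falls on steps. At 300 µM the step was 52.5 bases, with 66.3% of 104 low values no more than 0.12 reads from a whole number and a median of 17.3% over all steps tried. At 100 µM it was 54 bases, with 61.7% of 133 values and a median of 24.1%.

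With 1 library per dose no test was possible, so differences are log2((FPKM + 1) ratios), with counts at 2-fold and medians beside those of all genes. The scripts were tested on simulated data that hold counting error only, which says nothing of variation between cultures. Named in full are members beyond 2-fold, the large polymerase pairs, the kinase module and the paralog pairs. Of each further list at most 3 genes per direction beyond 2-fold are named, and Cdk8, Cdk19, Ccnc, Polrmt, Maf1 and Rrn3 whatever their values. Not every gene that this rule names is reported here. The members and lists were chosen with earlier results of these data known. Motifs, and the alternatives on older symbols and on shared or overlapped sequence, were chosen after seeing the data. The work used matplotlib 3.10.9, scipy 1.17.1, pandas 2.3.3 and numpy 2.4.6 under Python 3.11.15.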

Additional observations from a re-analysis of the deposited data

How the results depend on the processing

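No paired analysis was possible because each dose has 1 library, and no library could be left out. The direction of most values held, but sizes depended on the scale. The reported values were 18 lower and 2 higher subunit genes, a median log2 ratio of -0.53 over all, and medians of -0.73, -0.31, -0.65, 0.40 and -0.69 for polymerases I, II and III, shared subunits and Mediator. Centring on the median gene gave 12 lower and 6 higher genes, a median of -0.23, and -0.43, -0.0086, -0.35, 0.70 and -0.39 in that order of complexes. Polr2d, Med22, Med8, Med7, Med13l and Polr3a were then within 2-fold. A TMM factor (unweighted, with trims of 30% for ratios and 5% for levels) gave 13 lower and 6 higher genes and a median of -0.17. The complexes then stood at -0.39, 0.073 (polymerase II changed sign), -0.29, 0.78 and -0.32. Equal sums of FPKM gave 1 higher, -0.87, and -1.05, -0.67, -0.99, 0.025 and -1.03, with 26 genes lower. With the length and GC trend removed, polymerase II stood at -0.62, shared subunits changed sign to -0.37, and Mediator stood at -0.90. Of the 20 genes lower with that trend removed, 15 were among the 18. Polr3a (-0.72), Med13l (-0.46) and Med7 (-0.90) were then within 2-fold.

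The difference between large and small subunits (-1.004 over all, -1.19 in the polymerases, -1.01 in Mediator) was -0.048, -0.21 and 0.022 with that trend removed, so in Mediator its sign changed. A cut at 500 residues gave -0.63, -0.95 and -0.55, and a split at the median transcript length gave -0.75 over all and -0.44 in Mediator. A pseudocount of 0.1 gave -1.38 over all and -1.43 in Mediator. A pseudocount of 5 gave -0.60, -0.86 and -0.40, with 12 genes lower, 1 higher and polymerase I at -0.52. Without the filter, Mediator stood at -0.75. A mean of at least 10 FPKM, which left 42 of the 57 genes, gave -2.19, -1.76 and -1.88, with 8 genes lower. Its median was -0.015 over all, -1.22 for polymerase I, 0.17 for polymerase III (sign changed) and -0.25 for Mediator. In that setting Med1 was the only large Mediator subunit left, and Polr1a and Polr1b the only genes of polymerase I. Polr3a and Polr3b were not retained.

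At 1.5-fold 28 genes were lower and 7 higher, and at 3-fold 11 and 1. The share of all genes compared was counted only in the main setting (at 2-fold and 4-fold) and after centring. The other counts of lower and higher genes in this section have no such share beside them. Means in place of medians were -1.06 for polymerase I, -0.56 for polymerase II and 0.25 for shared subunits. Adding the 3 polymerase I genes under older symbols gave -1.002. Restricting to the 41 genes with under 10% of their sequence shared or overlapped left 0 higher genes, since Polr2i and Med27 were both removed. Polymerase II was then -0.97 and shared subunits 0.14 (Polr1c, Polr1d and Polr2e only), and large minus small was -0.41 in the polymerases and -1.71 in Mediator. The cause of these shifts was not tested. No subunit gene beyond 2-fold changed sign under any of the 8 alternatives of scale, filter, pseudocount or trend in which it was retained. Depth limits Med18 and Med26 at 300 µM, with about 19 reads each.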
